A study of Mus musculus with 9 samples.

Results

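Imprinted genes are expressed mainly or only from the maternal or the paternal chromosome, some of them only in certain tissues. Here 41 of them with known roles in fetal growth or in the brain were followed in the telencephalon. The telencephalon is the embryonic forebrain that forms cortex and basal ganglia. The members were a fixed list of symbols looked up in the count tables: 39 of 34590 genes were analysed, 38 of them were among the 17182 genes with enough counts to be tested, and Kcnq1ot1 and Snurf were not analysed here. Total RNA was sequenced from 4 mouse embryos with a Lats1/2 double knockout (dKO) made with Nestin-Cre and from 5 wild-type (WT) embryos, all telencephalons at E12.5 on a mixed strain background, 1 library per embryo. Lats1 and Lats2 code for Hippo kinases, which keep the coactivators YAP and TAZ in check. Nestin-Cre acts mainly in neural progenitors, so most vessel, blood and other cells outside the neural lineage should keep the genes. Which cells lost them was not measured in these bulk libraries. The sources used here do not give the controls' Cre or floxed alleles, nor the sex or litter of any embryo. Cells were counted, and synthetic ERCC RNAs were added in a fixed amount per cell number, so each gene could be measured per spike-in count, which stands for RNA per counted cell, and relative to the other genes of its library.

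Imprinted expression rests on differentially methylated control regions that are set in the germ line and kept in the embryo by factors such as the zinc finger protein ZFP57, which binds a methylated TGCCGC motif. Paternally expressed genes as a class tend to favour fetal growth (Igf2, Mest, Dlk1, Peg10), and several maternally expressed ones restrain it (Cdkn1c, Igf2r, Phlda2). In the brain a second set, with Snrpn, Magel2, Ndn and Ube3a, lies in the region whose human counterpart is lost in Prader-Willi and Angelman syndromes. The counts do not separate the parental alleles, so a change in a gene's level says nothing about its imprint.

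Gene counts per library ranged from 16566763 to 45803152 in dKO and from 12906561 to 39263370 in WT. Lats1 fell in dKO, to 59.8 ± 1.07 CPM against 132 ± 4.55 CPM in WT (SD, n = 4 and 5), while Lats2 was at 43.4 ± 9.46 CPM in dKO and 27.0 ± 6.18 CPM in WT (relative log2 0.69, edgeR adjusted p = 0.0144); which exons were deleted is not stated in the labels. CPM are counts scaled to the library's gene total after TMM, which sets the typical gene of each library equal. Gene counts per spike-in count were 79.1 ± 5.90 in dKO and 58.1 ± 6.10 in WT (two-sided exact permutation p = 0.00794), a 1.36-fold difference that all per-cell values below share. In WT 2, 3 and 4, reads in no gene made up 39.3% to 41.3% of all reads, against 32.0% to 35.6% in the other 6 libraries, so values are also given without these 3 libraries. A list of 12 telencephalic markers, Emx1 and Dlx2 among them, was tested in full. Of these, 5 fell relative to all genes, and their summed level was 1028 ± 45.7 CPM in dKO and 1265 ± 80.5 CPM in WT. Per cell 4 of the 12 rose and 2 fell, and the sum was 80.9 ± 5.20 counts per 1000 spike-in counts in dKO and 73.8 ± 10.7 in WT.

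Relative to all genes, 10 of the 38 imprinted genes rose in dKO (Mest, Slc38a4, Peg10, Plagl1, H19, Grb10, Cdkn1c, Mirg, Sgce and Impact), 7 fell (Dio3, Nnat, Meg3, Blcap, Snrpn, Usp29 and Inpp5f) and 21 did not pass the test (edgeR adjusted p under 0.05). Among all genes tested, 13.7% rose and 12% fell in this comparison, and 25.7% changed either way. Per cell 28 imprinted genes rose, 1 fell (Dio3) and 9 did not pass, where 61.1% of all genes rose, 0.698% fell and 61.8% changed either way. The median log2 fold change of the 38 genes was 0.07 relative to all genes and 0.51 per cell, against -0.01 and 0.43 over all genes. It was above 0 for 24 of the 38 relative to all genes (48.5% of all genes) and for 36 per cell (91.0% of all genes). Their summed level was 649 ± 47.4 counts per 1000 spike-in counts in dKO and 435 ± 58.3 in WT, 1.49-fold. Of the 7 genes that fell relative to the others, 6 had a per-cell log2 fold change above 0, from 0.11 to 0.24, and of these Inpp5f passed there as higher. Relative to all genes, 6 of the 38 were higher and 4 lower in every dKO library than in every WT library, as were 12.6% and 9.74% of all genes (22.3% together). Per cell the groups were apart for 21 higher genes and 1 lower one, as they were for 48.4% and 0.134% of all genes (48.6% together).

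**Figure D1:**
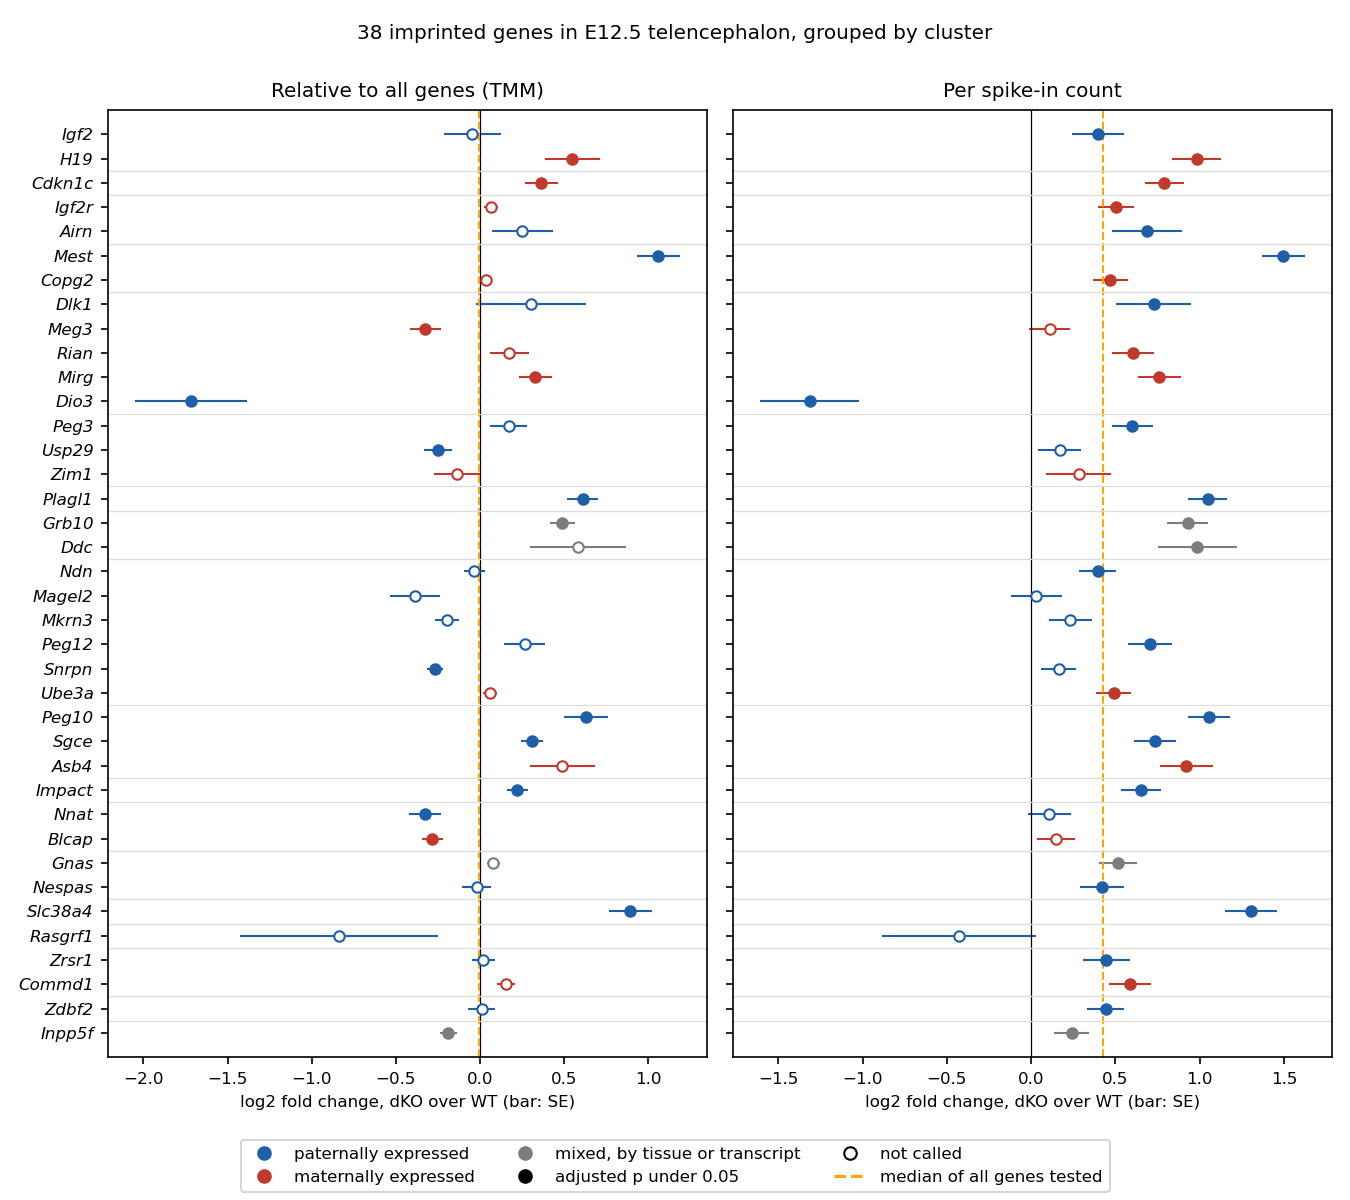
Log2 fold change (dKO over WT) of the 38 imprinted genes tested, relative to all genes on the left and per spike-in count on the right, with bars of 1 SE. Colours give the allele class as listed, filled points passed the test and the dashed line is the median of all genes. Mest and Slc38a4 lie farthest right on both scales, and Dio3 is the 1 called gene left of 0 on both.

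Growth control genes made up 5 of the 10 rises. Among the 8 tested, Mest, Slc38a4, Peg10, Grb10 and Cdkn1c rose relative to all genes and Igf2, Igf2r and Dlk1 did not pass; all 8 rose per cell. Among all genes tested, 13.7% rose in the relative fit and 61.1% per cell. The median log2 fold change of the 8 was 0.43 relative to all genes and 0.86 per cell, against -0.01 and 0.43 over all genes. Their summed level was 2766 ± 91.01 CPM in dKO and 1845 ± 237 CPM in WT, and 218 ± 12.9 against 107 ± 16.6 counts per 1000 spike-in counts. The dKO libraries spanned 2689 to 2898 CPM and the WT libraries 1622 to 2128 CPM, without overlap. Mest (957 ± 62.9 CPM in dKO, 460 ± 99.4 in WT) and Grb10 (979 ± 79.2 in dKO, 697 ± 59.5 in WT) made up most of the sum and of its difference. Igf2 was at 82.5 ± 20.7 CPM in dKO and 85.3 ± 16.3 in WT, and Igf2r at 294 ± 10.4 and 281 ± 11.5. The grouping was chosen with earlier results of these data known. With WT 2, 3 and 4 left out, 2 of the 8 rose and the median was 0.25, where 2.33% of all genes rose, with a median of -0.01. Markers of radial glia, the progenitors of this tissue, moved in the same libraries: 4 of 10 rose and 2 fell relative to all genes (7 and 1 per cell), and their summed level was 3564 to 4098 CPM in dKO and 2209 to 2604 CPM in WT. Their part in the growth genes was not tested, and a change in the share of a cell type and a change in RNA per cell of that type cannot be told apart in these bulk libraries.

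Mest, a hydrolase-fold enzyme expressed from the paternal allele and known for growth and maternal behaviour in mice, had the largest relative rise among the 38. It stood at 1051, 927, 933 and 917 CPM in dKO libraries 1 to 4 and at 604, 414, 402, 360.0 and 518 CPM in WT libraries 1 to 5. Every dKO library was above every WT library, and WT 1 and WT 5 were the highest of WT. The relative log2 fold change was 1.06 (SE 0.13, edgeR adjusted p = 0.000322). Per 1000 spike-in counts Mest reached 73.6, 78.2, 73.4 and 75.6 in dKO and 32.7, 20.6, 25.7, 21.97 and 32.4 in WT, a per-cell log2 fold change of 1.50 (SE 0.13). Against WT 1 and WT 5 alone the relative change was 0.76 and still passed.

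Slc38a4, a paternally expressed amino acid transporter, rose by the next largest amount. It had 17.3, 16.1, 13.1 and 11.4 CPM in dKO and 7.95, 6.54, 8.81, 7.42 and 8.499 CPM in WT, again without overlap. Its relative log2 fold change was 0.89 (SE 0.13, edgeR adjusted p = 0.000776), and it was 0.81 without WT 2, 3 and 4 and still passed. Peg10, a paternally expressed protein derived from a retrotransposon and needed for the mouse placenta, had 267, 221, 238 and 211 CPM in dKO against 187, 132, 125, 128 and 188 CPM in WT. All dKO libraries were higher, but WT 1 and WT 5 lay well above the other WT libraries. The relative log2 fold change was 0.63 (SE 0.13, edgeR adjusted p = 0.00558) and 0.31 without WT 2, 3 and 4, where it did not pass.

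Grb10 codes for an adaptor that dampens insulin and IGF receptor signalling; in mice it is expressed from the maternal allele in most tissues and from the paternal allele in neurons. Its levels were 1004, 950.5, 887 and 1073 CPM in dKO and 769, 667, 650.0, 646 and 754 CPM in WT, without overlap, and its relative log2 fold change was 0.49 (SE 0.07, edgeR adjusted p = 0.000860). Cdkn1c, the maternally expressed cell cycle inhibitor p57, had 175, 171, 169 and 137 CPM in dKO and 138, 113, 130.1, 106 and 146 CPM in WT. Here dKO 4 lay among the WT libraries, and the relative log2 fold change was 0.36 (SE 0.10, edgeR adjusted p = 0.0180). With WT 2, 3 and 4 left out, the values were 0.35 for Grb10 and 0.19 for Cdkn1c, and neither passed. The Cdkn1c call was also lost without dKO 1 (log2 0.33).

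The ligand Igf2, the main fetal insulin-like growth factor, and its clearance receptor Igf2r showed no relative change that passed. Igf2 had 61.01, 105, 95.1 and 69.2 CPM in dKO and 90.7, 72.6, 83.5, 69.4 and 110.1 CPM in WT, with dKO 1 the lowest and WT 5 the highest of all 9. Its log2 fold change was -0.05 relative to all genes (SE 0.17) and 0.40 per cell (SE 0.15, edgeR adjusted p = 0.0254). Igf2r, which carries Igf2 to lysosomes, was even across libraries, at 282, 289, 306 and 299 CPM in dKO and 280.0, 285, 262, 284 and 293 CPM in WT. The per-cell call of Igf2 was lost without any 1 of WT 2, dKO 2 and dKO 3 (log2 0.30, 0.22 and 0.33) and without WT 2, 3 and 4 together (log2 0.15), and DESeq2 called neither Igf2 nor Dlk1 per cell. Dlk1, a Delta-like membrane protein that holds back differentiation, varied most from embryo to embryo among these: 41.5, 57.9, 49.1 and 23.9 CPM in dKO and 51.4, 24.8, 23.8, 20.8 and 56.5 CPM in WT. Its groups overlapped almost fully, its relative log2 fold change was 0.30 (SE 0.33), and its per-cell rise of 0.73 did not pass without WT 2 (log2 0.59) or without WT 2, 3 and 4 (log2 0.11). Phlda2, which limits placental growth, was too low to test, at 4, 0, 3 and 2 counts in dKO and 1, 2, 1, 0 and 0 in WT. With 3 counts as the limit that a count of 0 allows, these zeros allow up to 0.108 CPM in dKO 2, 0.096 in WT 4 and 0.0768 in WT 5, for counting error only.

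**Figure D2:**
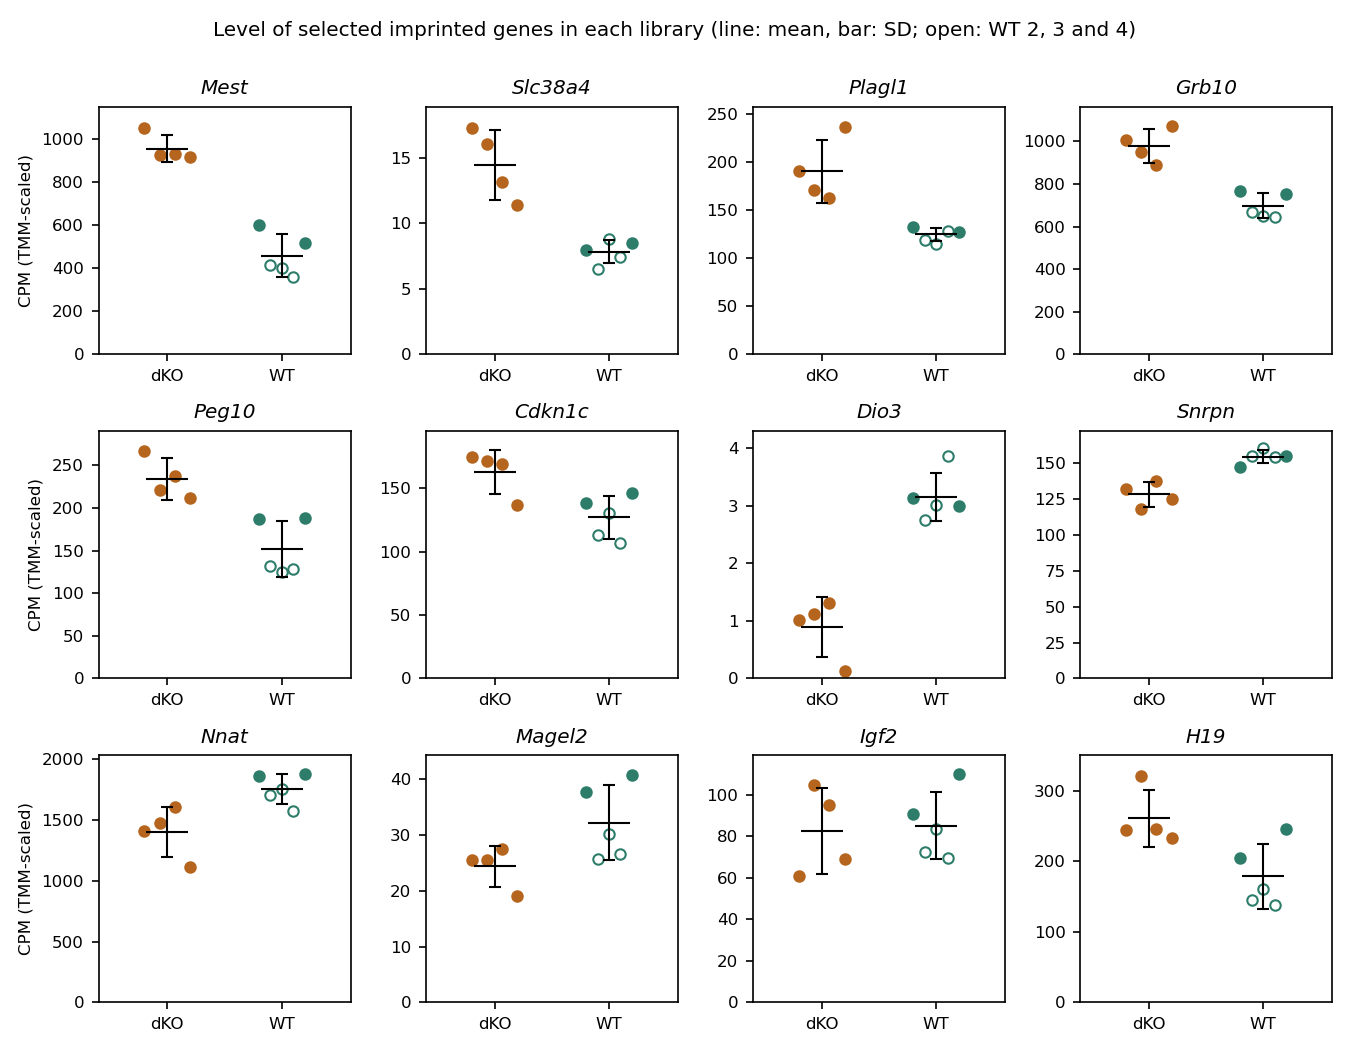
CPM of 12 imprinted genes in each library, dKO left and WT right, with the group mean (line) and SD (bar); open points are WT 2, 3 and 4. The dKO points of Mest, Slc38a4, Plagl1, Grb10 and Peg10 all lie above the WT points and those of Dio3 and Snrpn below them (Snrpn is not lower per cell, log2 0.16), while the groups of Igf2, H19, Cdkn1c, Nnat and Magel2 overlap.

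Around the IGF pathway, 14 genes were listed: the ligand Igf1, receptors, their substrates, the adaptor Grb14, IGF binding proteins and Igf2 RNA-binding proteins. Of these, 8 rose and 1 fell relative to all genes, with a median log2 fold change of 0.27, and per cell 12 rose. Among all genes tested, 13.7% rose and 12% fell in the relative fit, with a median of -0.01, and 61.1% rose per cell. Irs2, an adaptor of the insulin and IGF receptors, stood at 62.4 ± 12.1 CPM in dKO and 22.2 ± 2.59 CPM in WT (log2 1.49, edgeR adjusted p = 3.51e-05). Igfbp2, a secreted binding protein, was at 335 ± 67.6 CPM in dKO and 187 ± 5.41 CPM in WT (log2 0.84, edgeR adjusted p = 0.000306). Irs1 rose by 0.87, and the insulin receptor gene Insr was the 1 that fell, with a log2 fold change of -0.30 relative to all genes and 0.13 per cell. Without WT 2, 3 and 4, 2 of the 14 rose and 1 fell, where 2.33% of all genes rose and 0.972% fell.

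Plagl1, also called Zac1, is a paternally expressed zinc finger factor known in mice to regulate other imprinted genes. It had 190.5, 171, 163 and 237 CPM in dKO against 133, 119, 115, 129 and 127 CPM in WT. The groups did not overlap and dKO 4 was the highest of all, a relative log2 fold change of 0.61 (SE 0.09, edgeR adjusted p = 0.00106) that was 0.54 and did not pass without WT 2, 3 and 4. The other zinc finger genes of the list did not pass: Peg3 had 550.1, 542, 522 and 419 CPM in dKO and 537, 399, 422, 393 and 512 CPM in WT, and its maternally expressed neighbour Zim1 4.52, 4.51, 4.42 and 3.72 CPM in dKO and 5.81, 3.72, 5.27, 4.48 and 4.66 CPM in WT. Peg3 rose per cell (log2 0.60, edgeR adjusted p = 0.000128), and Zim1 had a per-cell log2 fold change of 0.28 that did not pass.

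The promoters of 3 genes whose dKO and WT libraries did not overlap are shown because each holds the ZFP57 letters. They are RefSeq windows of 300 bases on GRCm38.p6, from 250 before to 50 after a transcript start, written 5′ to 3′ on the gene's strand, with TGCCGC or its reverse complement GCGGCA in capitals; the Mest window lies at chr6:30737800-30738099 (plus strand), that of Plagl1 at chr10:13090582-13090881 (plus strand) and that of Grb10 at chr11:12037371-12037670 (minus strand).
Mest: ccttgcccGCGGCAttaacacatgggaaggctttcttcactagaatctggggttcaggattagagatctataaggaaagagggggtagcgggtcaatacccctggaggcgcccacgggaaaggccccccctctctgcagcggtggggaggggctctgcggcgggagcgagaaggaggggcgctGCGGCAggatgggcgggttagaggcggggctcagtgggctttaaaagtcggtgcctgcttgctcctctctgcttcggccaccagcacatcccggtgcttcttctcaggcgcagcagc
Plagl1: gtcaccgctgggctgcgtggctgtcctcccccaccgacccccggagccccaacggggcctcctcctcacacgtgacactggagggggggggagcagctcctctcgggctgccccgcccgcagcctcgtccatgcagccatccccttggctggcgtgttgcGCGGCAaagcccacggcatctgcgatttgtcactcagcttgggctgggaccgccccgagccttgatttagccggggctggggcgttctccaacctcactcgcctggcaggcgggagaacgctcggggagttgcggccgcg
Grb10: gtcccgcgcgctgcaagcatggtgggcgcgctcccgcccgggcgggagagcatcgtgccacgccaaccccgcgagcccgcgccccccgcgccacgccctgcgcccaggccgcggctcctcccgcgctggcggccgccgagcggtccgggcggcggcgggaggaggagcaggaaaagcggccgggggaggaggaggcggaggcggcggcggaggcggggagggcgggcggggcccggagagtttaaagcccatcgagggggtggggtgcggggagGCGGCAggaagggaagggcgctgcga
The Mest window held the motif at 2 places and 17 CpG dinucleotides, the Plagl1 window held 1 and 26, and the Grb10 window 1 and 45. RefSeq gave 52 windows for 34 of the 41 listed genes. H19, Cdkn1c, Peg10, Sgce and Impact, which rose relative to all genes, had none. The ZFP57 letters, on either strand, were in 12 of them (23.1%; the 11 genes Commd1, Copg2, Grb10, Igf2, Meg3, Mest, Nnat, Plagl1, Snrpn, Zdbf2 and Zim1), against 11.6% of all 32817 windows of that length. The letters of the TEAD motif, through which YAP and TAZ are known to reach DNA, are GGAATG or CATTCC. They were in 10 windows of 8 of the genes (19.2%), against 14.7% of all windows. Some windows overlap and are not independent. Those of Peg3 and Usp29 share the same TEAD match, and 2 Mest windows share the same ZFP57 matches. The median number of CpG was 13.5 in the imprinted genes' windows and 7 in all windows. These are matches of letters. The genes with the ZFP57 letters include ones that rose, fell and did not pass relative to all genes. Those with the TEAD letters were Commd1, Igf2, Mkrn3, Peg3, Rian, Snrpn, Usp29 and Zim1. Relative to all genes, none of them rose, Snrpn and Usp29 fell and the others did not pass. Per cell Commd1, Igf2, Peg3 and Rian rose and the others did not pass.

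Among the 6 long non-coding RNAs, H19 and Mirg rose relative to all genes, Meg3 fell (per-cell log2 0.11) and Airn, Rian and Nespas did not pass. H19, transcribed from the maternal allele beside Igf2, had 243, 321, 245 and 233 CPM in dKO and 205, 144, 160.4, 138 and 246 CPM in WT. Only WT 5 reached into the dKO range, and dKO 2 was far above the others. The relative log2 fold change was 0.55 (SE 0.16, edgeR adjusted p = 0.0297) and the per-cell one 0.98 (SE 0.15), where the groups did not overlap. The relative call of H19 was lost without any 1 of WT 2, WT 3, WT 4, dKO 1 and dKO 2 (log2 0.43 to 0.58) and without WT 2, 3 and 4 together (log2 0.20).

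In the Dlk1-Dio3 cluster the maternally expressed RNAs differed in direction relative to all genes. Meg3, a long non-coding RNA abundant in neurons, had 257, 304, 315 and 243 CPM in dKO and 382, 304, 385, 331 and 351 CPM in WT, lower relative to all genes (log2 -0.32, SE 0.09, edgeR adjusted p = 0.0211) and at 0.11 per cell, not passing. Rian, downstream of it and host to small nucleolar RNAs, had 584, 577, 568 and 438 CPM in dKO and 565, 426, 453, 405 and 555 CPM in WT, with dKO 4 apart from the other dKO libraries. Mirg, the microRNA host farther along, had 32.8, 31.9, 31.9 and 28.6 CPM in dKO and 31.5, 23.5, 22.7, 21.8 and 26.2 CPM in WT and rose (log2 0.33, SE 0.10, edgeR adjusted p = 0.0287). These RNAs are thought to come from a single long transcription unit in mouse, so they may not be independent. The call of Meg3 was lost without any 1 of WT 3, dKO 1 and dKO 4 (log2 -0.29 to -0.25), and that of Mirg without any 1 of WT 2, WT 3, WT 4, dKO 1, dKO 2 and dKO 3 (log2 0.28 to 0.32). Against WT 1 and WT 5 alone they were -0.40 and 0.12 and did not pass. Rows for 51 microRNA genes of the cluster were also counted, 34 of them tested. None passed relative to all genes with edgeR (0 also at an unadjusted p under 0.05), and 0 with DESeq2 or limma-voom. Per cell 5 rose, where 61.1% of all genes did. No row held more than 568 counts over the 9 libraries, and the SE of the relative log2 fold change ran from 0.15 to 0.45. The absence of calls therefore does not show an absence of change. The 51 rows summed to 25.0 to 30.7 CPM in dKO and 25.2 to 31.9 CPM in WT. Total RNA libraries hold precursors and host transcript fragments rather than mature microRNAs, so these are not mature levels.

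The same holds for the Mir335 row, which lies inside Mest on the same strand and was looked at after the values of Mest were seen. It had 5.15 ± 0.699 CPM in dKO and 3.01 ± 0.403 CPM in WT, without overlap (relative log2 0.80, SE 0.13, edgeR adjusted p = 0.00163). The mature microRNAs made there are shown with the seed, bases 2 to 8, in capitals (RefSeq, GRCm38.p6, plus strand, chr6:30741314-30741336 and chr6:30741354-30741375).
miR-335-5p: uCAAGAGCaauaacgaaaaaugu
miR-335-3p: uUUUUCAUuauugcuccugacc
The seeds differ, and the row does not say which arm was present.

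Airn, the paternal antisense RNA that silences Igf2r in mice, was low, with 3.66, 5.52, 6.42 and 6.04 CPM in dKO and 3.52, 3.87, 5.47, 5.02 and 4.48 CPM in WT; its groups overlapped on both scales, and it passed as higher per cell (log2 0.69). Nespas, the paternal antisense RNA of the Gnas locus, had a relative log2 fold change of -0.02 and Gnas itself, which codes for the stimulatory G protein subunit from several promoters with different imprints, of 0.08; both passed as higher per cell (0.42 and 0.52). Nespas and Gnas overlap by 988 bases of exon on opposite strands in the GENCODE annotation at hand, and the strand setting of the counting is unknown, so their counts are uncertain; so are those of Mest and Copg2 (912 bases) and of Zrsr1 and Commd1 (412 bases).

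Among the 6 tested genes tied to neurons, Nnat and Snrpn fell relative to all genes, with per-cell log2 fold changes above 0, while Magel2, Ndn, Ube3a and Rasgrf1 did not pass. Ndn and Ube3a rose per cell. The median log2 fold change was -0.30 relative to all genes and 0.14 per cell, against -0.01 and 0.43 over all genes. Their summed level was 2126 ± 214 CPM in dKO and 2514 ± 148 CPM in WT, with overlap. Most of that sum was Nnat alone, at 1399 ± 207 CPM in dKO and 1755 ± 125 CPM in WT. Relative log2 fold changes were -0.03 for Ndn, 0.06 for Ube3a, -0.27 for Snrpn, -0.39 for Magel2 and -0.84 for Rasgrf1, which was near the floor. The sum and the median thus do not show a fall shared by all 6 genes. Of 10 neuronal markers, 7 fell relative to all genes (1 of 10 without WT 2, 3 and 4), where 12% of all genes fell (0.972%). They summed to 3235 to 3669 CPM in dKO and 3807 to 4527 CPM in WT. Within WT the 2 sums did not move together. The marker sum was lowest in WT 1 and WT 5 (3807 and 4269 CPM). The sum of the 6 imprinted genes was highest there (2617 and 2688 CPM). Per cell 1 of the 10 rose and 9 did not pass, and the sum was 269 ± 8.74 counts per 1000 spike-in counts in dKO and 249.9 ± 35.2 in WT. The part of that in the imprinted genes was not tested.

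Nnat, neuronatin, a small membrane protein of paternal expression, was by far the most abundant per length of the 39 genes (765 CPM per kb in dKO and 959 in WT), followed in WT by Mest (243 CPM per kb in dKO and 117 in WT), Ndn (92.9 CPM per kb in dKO and 95.1 in WT) and Grb10 (108 CPM per kb in dKO and 76.7 in WT). It had 1404, 1474, 1604 and 1115 CPM in dKO and 1863, 1701, 1756, 1575 and 1878 CPM in WT. Only dKO 3 reached above the lowest WT library, and dKO 4 was the lowest of all; the relative log2 fold change was -0.33 (SE 0.10, edgeR adjusted p = 0.0281) and the per-cell one 0.11, not passing. Its maternally expressed host Blcap had 78.8, 83.1, 83.3 and 66.4 CPM in dKO and 95.5, 92.7, 97.02, 91.6 and 98.2 CPM in WT, without overlap (relative log2 -0.28, SE 0.06, edgeR adjusted p = 0.00627; 0.15 per cell, not passing). Against WT 1 and WT 5 alone the values were -0.43 for Nnat and -0.32 for Blcap, and neither passed. The Nnat call was also lost without any 1 of WT 1, WT 3, WT 5, dKO 1 and dKO 4 (log2 -0.33 to -0.22).

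In the Snrpn-Ube3a cluster, Snrpn, which codes for a splicing protein of neurons, was the 1 gene of 6 past the test. It had 132, 118, 138 and 125 CPM in dKO and 148, 155, 161, 154 and 155 CPM in WT, every dKO library lower. The relative log2 fold change was -0.27 (SE 0.05, edgeR adjusted p = 0.00181), while per cell it was 0.16 and did not pass. Ube3a, a ubiquitin ligase expressed from the maternal allele in neurons, had 251, 222, 219 and 228 CPM in dKO and 221, 222, 217, 216 and 228 CPM in WT. Mkrn3, a ring finger protein, was lower in every dKO library without passing (relative log2 -0.20, edgeR adjusted p = 0.0592). Magel2, a MAGE protein of the hypothalamus, had 25.6, 25.6, 27.5 and 19.03 CPM in dKO and 37.8, 25.7, 30.2, 26.7 and 40.8 CPM in WT; its relative log2 fold change of -0.39 did not pass, and against WT 1 and WT 5 alone it was -0.69 and did. Ndn (-0.03) and Peg12 (0.26), the paternally expressed neighbours, did not pass relative to all genes and rose per cell (0.39 and 0.71). Snrpn was -0.25 and did not pass without WT 2, 3 and 4.

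The Snrpn promoter window at chr7:60005150-60005449 on the minus strand of GRCm38.p6 (RefSeq) is shown because it was the only window of these genes with 3 matches to the TEAD letters. Capitals mark GGAATG or CATTCC and the ZFP57 letters GCGGCA.
Snrpn: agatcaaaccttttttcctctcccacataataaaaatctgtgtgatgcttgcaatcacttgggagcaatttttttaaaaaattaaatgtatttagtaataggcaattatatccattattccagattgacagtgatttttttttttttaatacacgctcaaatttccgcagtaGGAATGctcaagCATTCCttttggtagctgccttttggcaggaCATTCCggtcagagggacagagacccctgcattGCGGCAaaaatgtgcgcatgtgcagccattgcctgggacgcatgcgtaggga
It held 1 match to the ZFP57 letters and 7 CpG. The counts do not tell from which start site the Snrpn reads came.

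Rasgrf1, a Ras exchange factor of neurons, was near the floor, with 22, 1, 10 and 21 counts in dKO and 6, 25, 42, 30 and 21 in WT, and its relative log2 fold change of -0.84 (SE 0.59) did not pass. Without dKO 4, its highest dKO library, it passed as lower per cell (log2 -1.14).

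Dio3 had the largest fall among the 38 and was the only one called lower on both scales. It codes for the deiodinase that inactivates thyroid hormone and is expressed mainly from the paternal allele. It had 46, 31, 46 and 2 counts in dKO libraries 1 to 4 and 41, 97, 92, 121 and 117 counts in WT libraries 1 to 5, or 1.02, 1.12, 1.31 and 0.122 CPM in dKO against 3.13, 2.76, 3.01, 3.87 and 3.00 CPM in WT. All dKO libraries were below all WT libraries, and dKO 4 was the lowest, where 2 counts give an exact 95% interval of 0.0148 to 0.441 CPM. The log2 fold change was -1.72 relative to all genes (SE 0.33, edgeR adjusted p = 0.00361) and -1.32 per cell (SE 0.29, edgeR adjusted p = 0.000353). Against WT 1 and WT 5 alone the relative value was -1.69 and did not pass.

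Of the 15 genes with other cell functions, Sgce and Impact rose relative to all genes, Dio3, Usp29, Blcap and Inpp5f fell and 9 did not pass; of the 4 that fell, all but Dio3 had a per-cell log2 fold change above 0. Sgce, epsilon-sarcoglycan, lies head to head with Peg10 and had 39.5, 32.5, 40.2 and 37.1 CPM in dKO and 32.3, 29.5, 30.4, 29.6 and 29.5 CPM in WT, without overlap (log2 0.31, SE 0.07, edgeR adjusted p = 0.00645). Impact, an inhibitor of the kinase Gcn2, had 60.5, 52.4, 51.3 and 57.2 CPM in dKO and 51.8, 45.6, 46.2, 45.4 and 48.7 CPM in WT (log2 0.22, SE 0.06, edgeR adjusted p = 0.0222), with dKO 3 just inside the WT range. Usp29, a ubiquitin-specific peptidase, had 29.9, 23.8, 27.1 and 22.9 CPM in dKO and 31.9, 28.1, 30.3, 31.4 and 33.1 CPM in WT; it was lower relative to all genes (log2 -0.25, edgeR adjusted p = 0.0452) and at 0.17 per cell, not passing. Inpp5f, an inositol phosphatase with an imprinted brain transcript, was lower relative to all genes (log2 -0.19, edgeR adjusted p = 0.0169) and higher per cell (log2 0.24, edgeR adjusted p = 0.0422). It had 171, 154, 161 and 148 CPM in dKO and 167, 189, 189, 179.8 and 178 CPM in WT, with dKO 1 above WT 1.

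None of these 4 calls held without WT 2, 3 and 4, where the log2 fold changes were 0.27 for Sgce, 0.13 for Impact, -0.33 for Usp29 and -0.14 for Inpp5f. The call of Impact was lost without any 1 of WT 2, WT 3 and dKO 1 (log2 0.18 to 0.21), and that of Usp29 without any 1 of WT 1, WT 3, WT 4, WT 5, dKO 2, dKO 3 and dKO 4 (log2 -0.26 to -0.19). The per-cell call of Inpp5f was lost without any 1 of WT 1, WT 2, WT 4, dKO 2, dKO 3 and dKO 4 (log2 0.19 to 0.26). Copg2 (coatomer), Commd1 (copper metabolism), Zrsr1 (splicing), Zdbf2, Gnas and Peg12 rose per cell and did not pass relative to all genes, where their log2 fold changes ran from 0.01 to 0.26. Ddc, the decarboxylase of dopamine and serotonin synthesis, and Asb4, an ankyrin repeat protein, had relative log2 fold changes of 0.58 (SE 0.29) and 0.49 (SE 0.19) that did not pass; both rose per cell (log2 0.99 and 0.92, edgeR adjusted p = 0.000636 and 1.53e-05). Asb4 had 54.7, 63.6, 53.3 and 29.9 CPM in dKO and 47.5, 33.7, 32.5, 28.4 and 39.6 CPM in WT, and without dKO 4 its relative value was 0.67 and passed.

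Both allele classes held rises and falls. Among 22 paternally expressed genes tested, 6 rose and 4 fell relative to all genes, with a median log2 fold change of 0.01. Among 12 listed as maternally expressed, 3 rose and 2 fell, with a median of 0.11. Of the 4 listed as mixed by tissue or transcript, 1 rose and 1 fell. The classes follow general knowledge of mouse imprinting and were not measured in this tissue. Ube3a, for example, is listed as maternal for its expression in neurons, and the counts do not show which allele was used here. Per cell, 15 of 22 paternally, 9 of 12 maternally and 4 of 4 mixed genes rose, with medians of 0.44, 0.55 and 0.72. Of all genes tested, 61.1% rose per cell, with a median of 0.43. Relative to all genes 13.7% rose and 12% fell, with a median of -0.01. The summed level of the paternally expressed genes was 4323 ± 321 CPM in dKO and 3994 ± 388 CPM in WT, and that of the maternally expressed genes 2101 ± 163 CPM in dKO and 1961 ± 177 CPM in WT, both with overlap. By cluster, all 3 tested Peg10 genes had relative log2 fold changes above 0 (2 rose), both Nnat-Blcap genes fell (per-cell log2 above 0), and the Dlk1-Dio3 cluster held 1 rise and 2 falls among 5. A difference between the allele classes was not tested.

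A ratio of 2 genes of the same cluster within a library needs no scaling, and 9 maternal-to-paternal pairs were compared (two-sided exact permutation tests over 126 assignments of the libraries, adjusted over the 9 pairs). H19 over Igf2 was 3.99, 3.07, 2.58 and 3.36 in dKO and 2.26, 1.99, 1.92, 1.99 and 2.24 in WT. Each dKO ratio was above each WT ratio, although neither the level of H19 nor that of Igf2 separated the groups relative to all genes (log2 difference 0.63, exact p = 0.00794, adjusted 0.0238). Copg2 over Mest was lower, at 0.119, 0.136, 0.129 and 0.127 in dKO and 0.204, 0.292, 0.293, 0.313 and 0.237 in WT (log2 difference -1.05, exact permutation p = 0.00794, adjusted 0.0238). Ube3a over Snrpn was higher, at 1.91, 1.87, 1.59 and 1.82 in dKO and 1.497, 1.43, 1.35, 1.40 and 1.47 in WT (log2 difference 0.33, exact permutation p = 0.00794, adjusted 0.0238). The exact p of these 3 pairs is the smallest the 126 assignments can give.

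Zim1 over Peg3 was lower in every dKO library, with a log2 difference of -0.32 that did not pass (exact permutation p = 0.0317, adjusted 0.0714). Meg3 over Dlk1 spread widely, at 6.19, 5.25, 6.42 and 10.2 in dKO and 7.43, 12.3, 16.2, 15.9 and 6.21 in WT, with overlap (log2 difference -0.67, exact permutation p = 0.111). WT 1 and WT 5 had the lowest WT ratios of this pair. The other pairs overlapped: log2 differences were -0.19 for Igf2r over Airn, -0.20 for Asb4 over Peg10, 0.14 for Commd1 over Zrsr1 and 0.04 for Blcap over Nnat, whose genes share a locus. Commd1 had 44.6, 49.6, 47.8 and 42.8 CPM in dKO and 42.2, 41.00, 41.5, 40.3 and 43.1 CPM in WT, Zrsr1 11.7, 10.6, 10.6 and 10.4 CPM in dKO and 11.2, 10.8, 10.97, 10.4 and 10.3 CPM in WT, and Copg2 125, 126, 120.5 and 117 CPM in dKO and 123, 121, 118, 113 and 123 CPM in WT. Without WT 2, 3 and 4 the 3 pairs that passed kept their direction, at 0.52, -0.78 and 0.27, in a design that allows no p under 0.0667.

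**Figure D3:**
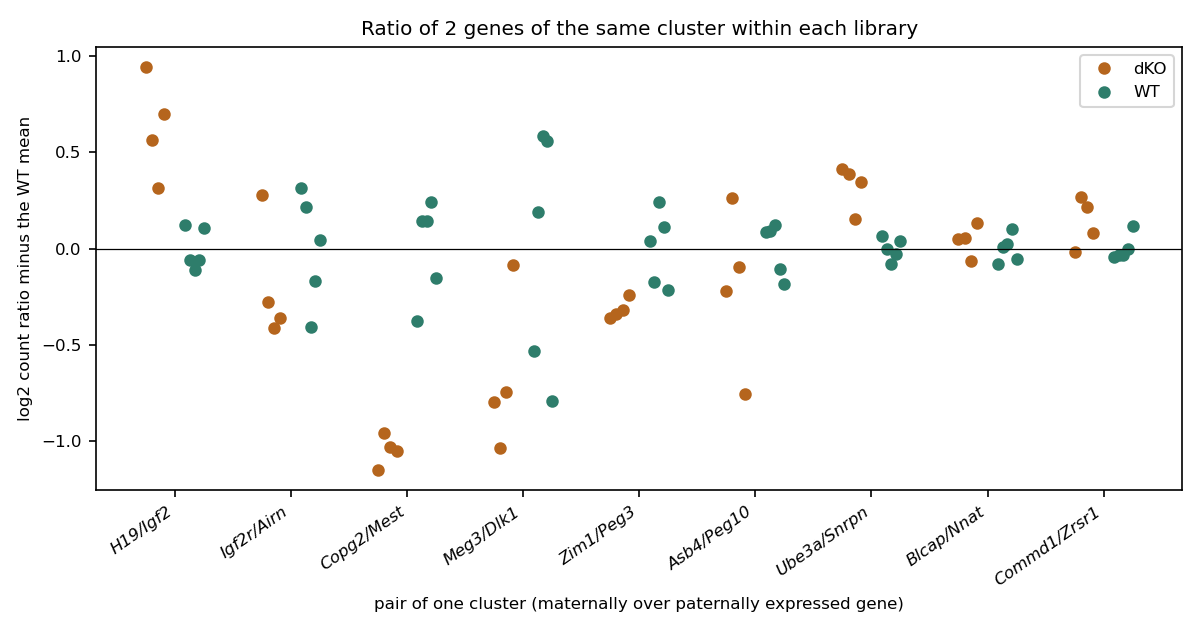
Log2 ratio of the counts of 2 genes of the same cluster in each library, minus the WT mean of that pair; dKO points lie left of WT points. The groups are apart for H19/Igf2, Copg2/Mest, Zim1/Peg3 and Ube3a/Snrpn.

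The imprinted genes also varied together between embryos of the same genotype, a pattern picked out after their values were seen. Of the 38, dKO 4 was the lowest dKO library for 25 (65.8%), where this held for 26.4% of all genes tested. WT 1 and WT 5 both stood above WT 2, 3 and 4 for 23 (60.5%), against 20.8% of all genes, and 18 genes (47.4%, against 7.29% of all genes) did both. The 18 were H19, Cdkn1c, Mest, Copg2, Dlk1, Rian, Mirg, Peg3, Usp29, Ddc, Magel2, Mkrn3, Peg12, Peg10, Asb4, Nnat, Commd1 and Zdbf2, of both allele classes and on several chromosomes. Plagl1, Grb10, Gnas, Nespas and Rasgrf1 were instead highest in dKO 4. Members of a cluster are not independent, and no test was made of these counts.

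Of the marker lists, 3 showed the same split of the libraries in both genotypes and in the same direction. Markers of the neighbouring diencephalon and hypothalamus (10 genes, 7 tested) summed to 95.8, 109, 101 and 61.4 CPM in dKO 1 to 4 and to 121, 80.8, 80.2, 75.1 and 119 CPM in WT 1 to 5, lowest in dKO 4 and highest in WT 1 and WT 5. Markers of red blood cells (10 genes) summed to 2579, 3572, 3270.5 and 1961 CPM in dKO and 6636, 3548, 2462, 2551 and 4286 CPM in WT, also lowest in dKO 4 and highest in WT 1 and WT 5. Markers of vessels (10 genes) summed to 287, 293, 340.0 and 259.9 CPM in dKO and 301, 281, 292, 266 and 342 CPM in WT, with dKO 4 the lowest of dKO and WT 1 and WT 5 the highest of WT. Markers of pericytes and mesenchyme summed to 848 to 1202 CPM in dKO and 935 to 1159 CPM in WT. Other lists split the WT libraries too. Radial glia markers were higher in WT 1 and WT 5 (2604 and 2546 CPM) than in WT 2, 3 and 4 (2209 to 2314), but highest of dKO in dKO 4. In the other direction, WT 1 and WT 5 were lower for telencephalic (1162 and 1212 CPM, against 1264 to 1358) and neuronal markers (3807 and 4269, against 4397 to 4527). The same held for choroid plexus markers (241 and 128, against 266 to 459). WT 2, 3 and 4 are also the libraries with more reads in no gene. Markers of microglia summed to 105 to 155 CPM in dKO and 87.95 to 106 CPM in WT, of choroid plexus to 175 to 239 CPM in dKO and 128 to 459 CPM in WT, and of surface tissue and neural crest to 22.9 to 38.4 CPM in dKO and 22.6 to 42.6 CPM in WT. None of the markers was at 0 in all libraries, and the part of any of these in the imprinted genes was not tested.

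**Figure D4:**
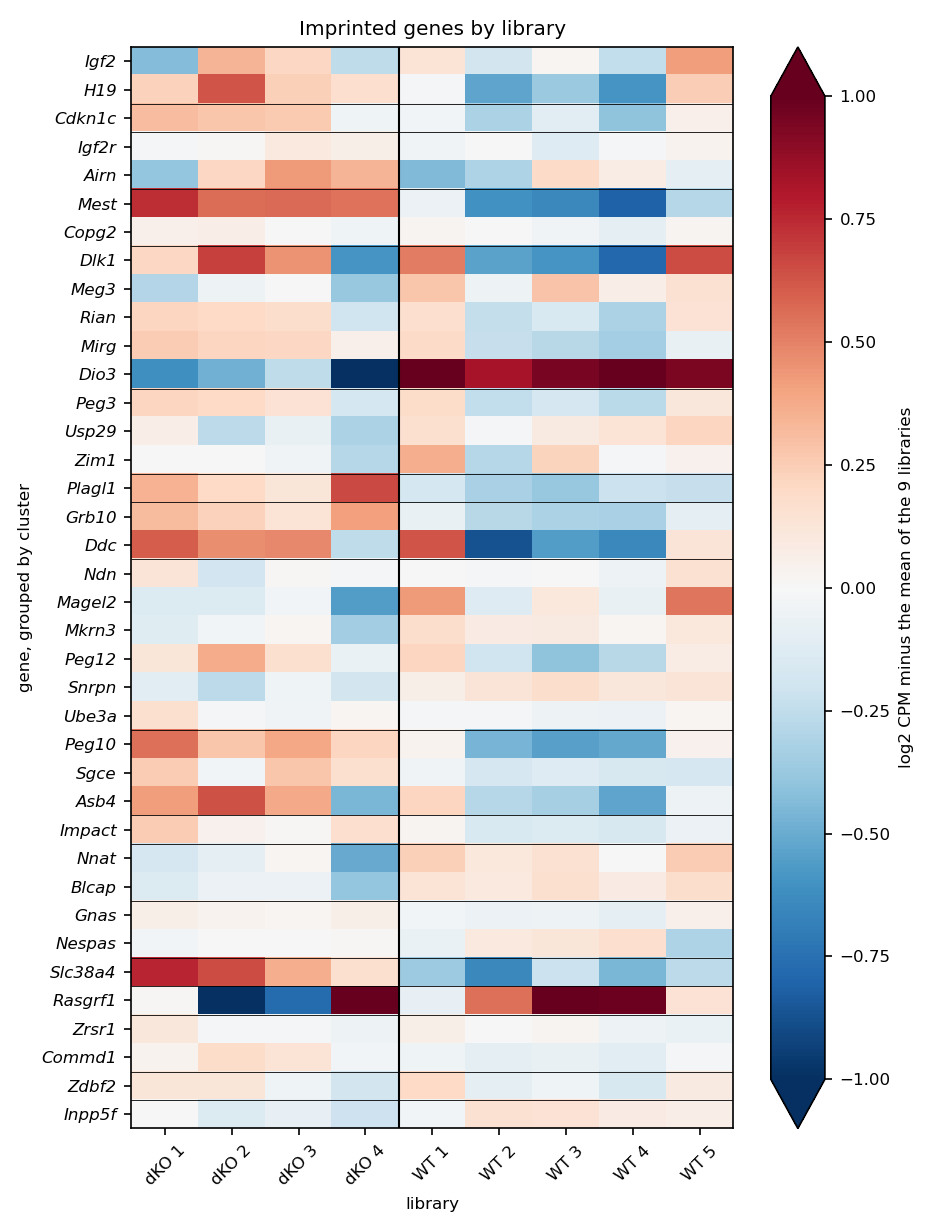
Log2 CPM of the 38 tested genes in each library minus the gene's mean over the 9 libraries, dKO left of the line and WT right of it, genes in cluster order; colours saturate at 1. For many rows dKO 4 is paler or bluer than dKO 1 to 3 and WT 1 and WT 5 redder than WT 2 to 4, as for Dlk1, Rian, Peg3 and Ddc.

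When WT 2, 3 and 4 were left out, 2 imprinted genes rose relative to all genes (Mest and Slc38a4) and 1 fell (Magel2), where 2.33% of all genes rose and 0.972% fell. That fit holds 2 WT libraries in place of 5. Per cell the same fit called 23 of the 38 higher and 1 lower (Dio3), where 48.2% of all genes rose and 0.257% fell.

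Other known imprinted genes were also looked up. Of 40 further imprinted genes, 36 were found and 30 tested. Of the 30, 3 rose and 5 fell relative to all genes, with a median log2 fold change of -0.05. Per cell 19 rose, with a median of 0.38. For these and for the next list, the shares of all genes tested were 13.7% higher and 12% lower in the relative fit. Per cell 61.1% of all genes rose, and the all-gene medians were -0.01 and 0.43. The 4 with the smallest relative adjusted p fell on that scale: Trappc9 (log2 -0.29), the serotonin receptor Htr2a (-0.69), the signal peptide peptidase H13 (-0.18) and Begain (-0.39). Per cell their log2 fold changes were 0.15 for Trappc9, -0.26 for Htr2a, 0.25 for H13, which passed as higher, and 0.05 for Begain. Of 19 tested genes for making or keeping DNA methylation imprints, 5 fell and 1 rose relative to all genes, while per cell 16 rose (medians -0.08 and 0.36). The 3 Tet genes, which oxidise methylated cytosine, fell relative to all genes and had per-cell log2 fold changes from 0.11 to 0.15 that did not pass: Tet1 was at 75.3 ± 4.41 CPM in dKO and 94.2 ± 3.39 CPM in WT (log2 -0.32, edgeR adjusted p = 0.000678), Tet2 had a log2 fold change of -0.30 and Tet3 of -0.29. Zfp57 itself was at 122 ± 4.48 CPM in dKO and 138 ± 6.36 CPM in WT (log2 -0.17, edgeR adjusted p = 0.0120). Per cell Zfp57 passed as higher (log2 0.26). Without WT 2, 3 and 4, none of the 30 further imprinted genes passed with edgeR, and 1 of the 19 fell. Of the 30, 4 were higher and 6 lower at an unadjusted p under 0.05. In that fit 2.33% of all genes rose and 0.972% fell.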

How the data were processed

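Counts of reads per gene and per ERCC spike-in were deposited by the authors for each of 9 libraries; per the labels' protocols, the cells of each telencephalon were counted, spike-in RNA was added per cell number before extraction, and a stranded total RNA kit was used. STAR, HTSeq and the mm9 build are named in the submitters' processing notes; their versions, their roles and the strand setting are unknown here. Rows that name no gene (reads in no gene, not unique, not aligned, ambiguous) were kept out of library sizes; reads in no gene made up 32.0% to 41.3% of reads. Of 34590 genes, the 17182 kept by filterByExpr held 99.9% of gene counts. edgeR 4.0.16 (quasi-likelihood, R 4.3.3) compared 4 dKO with 5 WT libraries in 2 fits: per cell, with the total of the 92 spike-ins as library size, and relative to all genes, with TMM. P-values were adjusted by Benjamini-Hochberg over all genes tested (threshold 0.05) and measure the spread between embryos. The fits were tested on simulated data. Ratios within pairs used counts plus 0.5 and exact permutation tests.

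The 41 imprinted genes, their grouping and all lists were chosen with earlier results of these data known. All members are accounted for; values per library are given for genes past the relative threshold and for both genes of each cluster pair averaging 1 CPM or more, and from the lists up to 4 genes by smallest adjusted p. Alternatives were DESeq2 1.42.0, limma 3.58.1 (voom), other scalings and filters, each library left out, WT 2, 3 and 4 left out, the share of reads in no gene as a covariate, and a replicate block. Same-numbered dKO and WT libraries did not deviate together. Promoter and microRNA sequences are RefSeq's on GRCm38.p6, and exon overlaps and lengths come from the GENCODE M21 annotation; no coordinate of the mm9 counting was used. 1 marker gene of the lists is not reported here and was left out of its list's counts and sums.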

Additional observations from a re-analysis of the deposited data

Results flagged for a closer look

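In 7 of 76 gene and genotype groups, 1 library lay far from the others of its genotype, where chance flags about 1 in 20 groups. In dKO, H19 was high in library 2 (321.1 CPM, the nearest other at 245.3), Mest was high in library 1 (1051 CPM, nearest 932.9), and Zrsr1 was high in library 1 (11.7 CPM, nearest 10.6). dKO 4 was low for Cdkn1c (137.1 CPM, nearest 168.7), Rian (438.3 CPM, nearest 567.8) and Zim1 (3.72 CPM, nearest 4.42). In WT, Ndn was high in library 5 (385.3 CPM, nearest 346.8). Of these genes, Mest kept its call without the library that stood apart, H19 lost its relative call without dKO 2 (log2 0.43), and Cdkn1c kept its call without dKO 4.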

How the results depend on the processing

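No called result turned its direction under any alternative run. DESeq2, limma-voom, the other scalings and the filters each left at least 34 of the 38 imprinted genes on their side of the relative threshold; DESeq2 added Magel2, Mkrn3 and Commd1, and limma-voom added Ddc, Asb4 and Commd1 and lost Usp29. DESeq2 called 79 genes lower per cell and a fit with no filter 187, against 120. Leaving out 1 library gave 66 to 205 genes lower per cell, 1 to 2 imprinted genes lower per cell, and relative to all genes 6 to 13 imprinted genes higher and 4 to 8 lower. Without WT 2, 3 and 4 there were 45 genes lower per cell, 407 genes higher and 170 lower relative to all genes, and 2 imprinted genes higher and 1 lower; the gene count per spike-in count was 0.45 on the log2 scale (exact permutation p = 0.0667, the smallest that design gives). Without dKO 4 as well, an alternative chosen after seeing the data, there were 6799 genes higher and 60 lower per cell, 421 higher and 171 lower relative to all genes, and 5 imprinted genes higher and 2 lower. With the share of reads in no gene as a covariate, 989 genes rose and 738 fell relative to all genes, and 6 and 4 imprinted genes. These fits hold fewer libraries or 1 more term; the cause was not tested otherwise. The 3 pair ratios that passed ran, with 1 library left out, from 0.53 to 0.74 for H19 over Igf2 and from -1.14 to -0.99 for Copg2 over Mest. Ube3a over Snrpn ran from 0.30 to 0.38 (exact permutation tests for all 3, adjusted p from 0.0536 to 0.0643). With 1 library left out there are fewer than 126 assignments, so the smallest possible exact p is larger. The groups of these pairs stay apart there, so these p-values are set by the design and cannot show whether a ratio depends on 1 library. Without WT 2, 3 and 4 the ratios were 0.52, -0.78 and 0.27 (exact permutation tests, adjusted p 0.3, 0.2 and 0.2). Replicate numbers did not pair the libraries (correlations from -0.29 to 0.16); with the replicate block 10476 genes rose and 145 fell per cell, 1864 rose and 1598 fell relative to all genes, and 10 imprinted genes rose and 5 fell, Usp29 and Inpp5f not passing. Low counts limit Dio3, Rasgrf1 and Phlda2.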
